A study of Homo sapiens with 4 samples.

Results

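ANXA1 and ANXA2P2 are annexin-family genes, each read by 1 probe on whole-transcript arrays of 4 human prostate cancer cell cultures. Both were picked out because they stood among the largest differences between the array labelled LNCaP-AI and the LNCaP array, so that difference is given below as a description. They are 2 of 14006 genes with a named probe (probe 17085901 for ANXA1 and probe 17084363 for ANXA2P2) and 2 of the 16 annexin genes and pseudogenes so measured. Both lie on chromosome 9.

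The cultures were PC3-H and PC3-L, and LNCaP with its derivative LNCaP-AI, each on 1 array. PC3 came from a bone metastasis and is androgen-independent; LNCaP came from a lymph node metastasis and is labelled androgen-dependent. PC3-H and PC3-L were separated from PC3 cells with the antibody IIH6C4 and are named for high and low laminin-binding glycan, with low and high motility and invasion. LNCaP is labelled high for the glycan and low for motility, and as the parent of LNCaP-AI. LNCaP-AI is labelled low for the glycan, high for motility and androgen-independent, and was obtained in medium with charcoal-stripped serum; its description also names conditioned medium of perineural cells. All cultures were kept in RPMI1640 with antibiotics, otherwise with 10% serum. No group had a replicate, so no difference below carries an error or a test, and the free-text descriptions give PC3-H and PC3-L the opposite glycan levels to their titles and call LNCaP androgen-independent.

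Annexins are calcium-dependent proteins that bind acidic phospholipids on the inner face of membranes. ANXA1 is a glucocorticoid-regulated protein that, once outside the cell, acts on formyl peptide receptors and limits inflammation; its loss or reduction has been described in prostate cancer tissue. ANXA2 forms a heterotetramer with S100A10 at the plasma membrane and helps plasminogen activation there. ANXA2P2 is a transcribed processed pseudogene of ANXA2, so near in sequence that a probe for one copy may read RNA of the other.

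The RefSeq promoter window of ANXA1 is shown because ANXA1 is the protein-coding member, and that of ANXA2 because RNA of this gene may reach the ANXA2P2 probe. Each window runs 5′ to 3′ from 250 bases before to 50 bases after the annotated start in GRCh38.p14, ANXA1 at chr9:73151615-73151914 on the plus strand and ANXA2 at chr15:60397937-60398236 on the minus strand. Capitals mark matches, on either strand, to 6 short motifs. They are TATAAA for the core promoter box, CCAAT for the box bound by nuclear factor Y, TGANTCA for the AP-1 factors, GGGCGG for SP1, CATTCC for the TEAD factors and TGTTCT for 1 arm of a glucocorticoid receptor site.
ANXA1: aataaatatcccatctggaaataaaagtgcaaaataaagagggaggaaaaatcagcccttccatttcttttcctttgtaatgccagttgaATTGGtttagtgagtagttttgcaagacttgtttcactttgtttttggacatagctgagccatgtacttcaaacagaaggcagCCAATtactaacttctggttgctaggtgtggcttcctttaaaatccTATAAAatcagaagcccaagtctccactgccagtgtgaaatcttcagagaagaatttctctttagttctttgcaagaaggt
ANXA2: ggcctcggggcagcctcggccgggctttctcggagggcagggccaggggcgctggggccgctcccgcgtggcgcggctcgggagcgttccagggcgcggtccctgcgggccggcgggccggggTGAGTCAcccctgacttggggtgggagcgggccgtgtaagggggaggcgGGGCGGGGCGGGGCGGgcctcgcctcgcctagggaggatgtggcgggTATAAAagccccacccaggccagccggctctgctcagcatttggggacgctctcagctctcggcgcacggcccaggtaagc
Both windows hold TATAAA beginning 31 bases before the start, a motif found in 11.5% of 35116 RefSeq windows of this length. The ANXA1 window holds CCAAT, 77 bases before the start and again on the opposite strand 160 bases before it (34.6% of windows hold it). The ANXA2 window holds 1 TGANTCA match 127 bases before the start (7.71% of windows) and 3 GGGCGG matches (45% of windows), of which neighbours share a base. CATTCC (14% of windows) and TGTTCT (14.8%) have no match in either window, which says only that these letters are not there. Of the 2 members, 1 matched the promoter table.

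The arrays had like distributions, with medians of 39.8 to 41.2 on a linear intensity scale whose lowest value was 17.6. Expressed as summed intensity, the 4 measured of 7 LNCaP markers (KLK3, KLK2, FOLH1, SPDEF) came to 3613 on LNCaP and 187 to 435 on the other 3 arrays, and the 6 PC3 markers to 277 on LNCaP and 2805 to 3193 on the others. Against LNCaP, the array labelled LNCaP-AI was past 2-fold lower at all 4 LNCaP markers and past 2-fold higher at 5 of the 6 PC3 markers. The PC3 sums differ in make-up, so like totals alone do not show a shared profile. Of the 6 PC3 markers, LNCaP-AI was past 2-fold from PC3-L at 1 (CXCL8, lower) and from PC3-H at 4. Of all genes tested, 2.79% were past 2-fold in either direction between LNCaP-AI and PC3-L, and 10.6% between LNCaP-AI and LNCaP. LCN2 was 1881 on PC3-H, 46.1 on PC3-L, 64.5 on LNCaP and 46.0 on LNCaP-AI. CXCL8 was 302, 497, 22.3 and 46.9 on these arrays, and VIM 104, 896, 65.1 and 1216. LCN2 on LNCaP-AI was almost equal to PC3-L and also within 2-fold of LNCaP, so this gene does not tell those arrays apart. In both sums the array labelled LNCaP-AI departs from that label, by which it is called throughout. What part this has in the annexin values was not tested; the members' differences are therefore also given between arrays that leave it out. In cultures measured whole, fewer cells of a kind and less RNA per cell cannot be told apart.

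ANXA1 had an intensity of 294 on PC3-H, 1269 on PC3-L, 28.9 for LNCaP and 833 for the array labelled LNCaP-AI. It was dim on LNCaP, where it lay under the 40th percentile of that array (34.2), and bright on the other 3, in the order PC3-L, LNCaP-AI, PC3-H. A fold against LNCaP is therefore likely to be understated for this gene, since the table holds no value under its floor.

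ANXA2P2 had an intensity of 2299 for PC3-H, 3668 for PC3-L, 95 for LNCaP and 3601 for the array labelled LNCaP-AI. It too was lowest on LNCaP, though above the 40th percentile there, and PC3-L and LNCaP-AI had almost the same value. PC3-H lay below both, but much nearer to them than ANXA1 did.

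**Figure D1:**
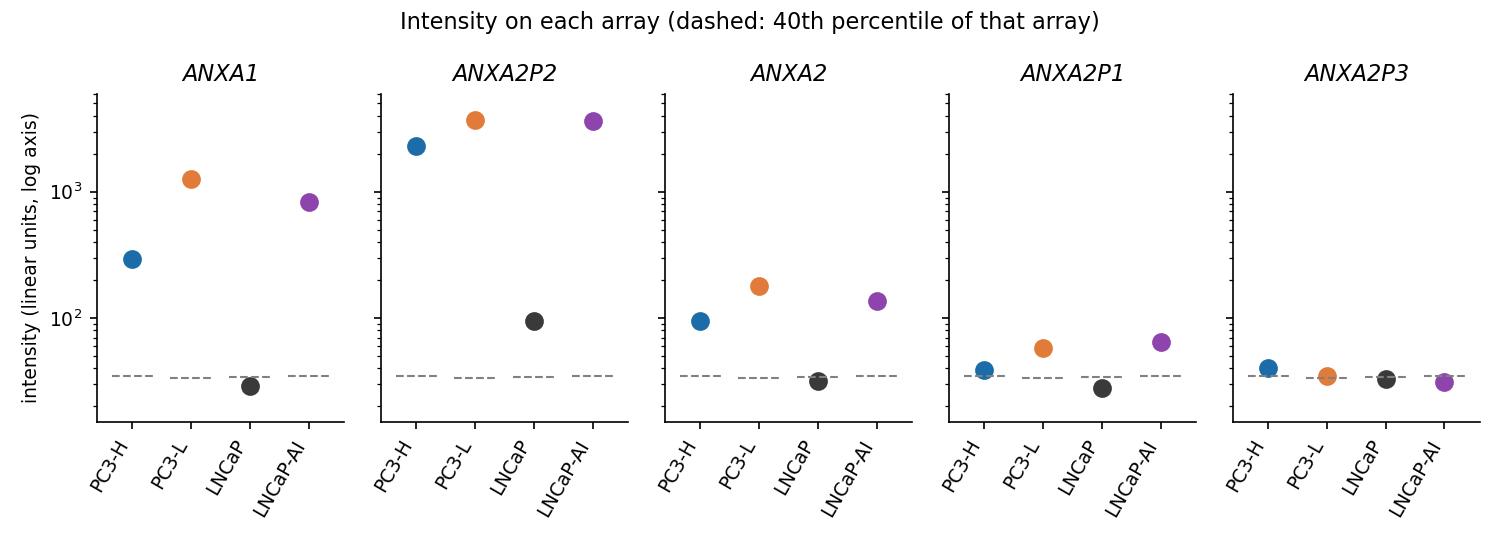
Intensity (linear units on a log axis) of 5 annexin probes on the 4 arrays, 1 point per array, with the 40th percentile of each array as a dashed line. LNCaP is the lowest array for ANXA1 (28.9), ANXA2P2 (95), ANXA2 (31.4) and ANXA2P1 (27.8); heights are not comparable between probes.

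The pair of arrays labelled PC3 shares no array with the difference that picked out these genes. There ANXA1 was 4.30-fold higher on PC3-L than on PC3-H, a log2 difference of 2.11, computed as all differences here on log2(intensity + 1). It ranked 78th from the top among 11126 genes that were tested, meaning that the brighter of the 2 values was at or above the 40th percentile there. In the same pair ANXA2P2 was 1.59-fold higher (log2 difference 0.67, rank 1778), within 2-fold. For comparison, 12.3% of tested genes were past 2-fold in either direction and 8.58% past it higher on PC3-L.

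Against the LNCaP array, PC3-H had 9.86-fold more ANXA1 signal (log2 difference 3.30, rank 24 of 11154) and 23.96-fold more ANXA2P2 signal (log2 difference 4.58, rank 6). This comparison leaves out the array labelled LNCaP-AI, and 4.49% of genes were past 2-fold higher in it. PC3-L against LNCaP gave 42.5-fold for ANXA1 (5.41, rank 5 of 11111) and 38.2-fold for ANXA2P2 (5.26, rank 7), with 7.24% of genes past 2-fold higher. The array labelled LNCaP-AI against LNCaP, the difference used for the choice, gave 27.9-fold for ANXA1 (4.80) and 37.5-fold for ANXA2P2 (5.23); 5.45% of genes were past 2-fold higher there. These 3 differences share the LNCaP array, so its low values enter each of them.

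Both genes were lowest on LNCaP and next lowest on PC3-H, but with steps of different size. PC3-L was above LNCaP-AI for ANXA1, whereas for ANXA2P2 these arrays were almost level (1.02-fold), so their order is not read. That LNCaP lay below LNCaP-AI was fixed by the choice of the members. From PC3-H to PC3-L the log2 difference of ANXA1 was the larger by 1.43, and from PC3-H to LNCaP-AI by 0.85. From LNCaP to PC3-H that of ANXA2P2 was the larger by 1.28, a gap that rests on the dim ANXA1 value on LNCaP and may be overstated.

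The array labelled LNCaP-AI lay close to PC3-L for ANXA2P2, at 1.02-fold lower (log2 difference −0.03). For ANXA1 it was 1.52-fold lower than PC3-L (−0.61), a difference that placed it 915th from the bottom of 10942 genes. In that pair 2.79% of genes were past 2-fold in either direction. Against PC3-H the same array was 2.83-fold higher for ANXA1 (1.5) and 1.57-fold higher for ANXA2P2 (0.65), where 3.98% of genes were past 2-fold higher.

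**Figure D2:**
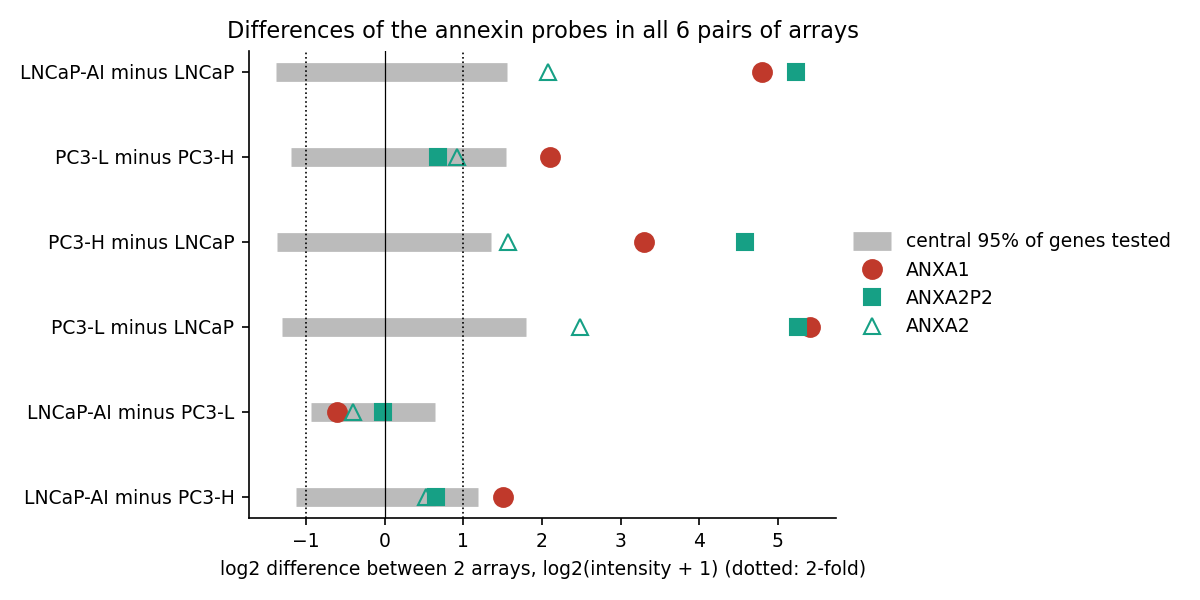
Log2 difference of ANXA1, ANXA2P2 and ANXA2 (symbols) in each of the 6 pairs of arrays, with the central 95% of the genes tested as a grey bar and 2-fold as dotted lines. Both members lie far to the right in the 3 pairs with LNCaP, and in the PC3 pair ANXA1 (2.11) lies outside the bar while ANXA2P2 (0.67) lies inside it.

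ANXA2 and its other copies had probes of their own, and their patterns can be set beside that of ANXA2P2. ANXA2 had an intensity of 94.8 on PC3-H, 180 on PC3-L, 31.4 for LNCaP and 136 for the array labelled LNCaP-AI. The lowest array was LNCaP, as for ANXA2P2, and the highest was PC3-L, which for ANXA2P2 was almost level with LNCaP-AI. The ANXA2 value on LNCaP, like that of ANXA1, lay under the 40th percentile of that array, so its folds against LNCaP may be understated. PC3-H exceeded LNCaP by 2.96-fold for ANXA2 (log2 difference 1.56), and LNCaP-AI exceeded LNCaP by 4.23-fold (2.08). In the PC3 pair the ANXA2 difference, 1.89-fold (0.92), was larger than that of ANXA2P2. ANXA2P1 was 38.9, 57.9, 27.8 and 64.2 in the order PC3-H, PC3-L, LNCaP, LNCaP-AI, again lowest on LNCaP. ANXA2P3 was 39.9, 34.9, 33.1 and 31.4 on the same arrays, near the 40th percentile of each, and within 1.26-fold in every pair. The 4 probes may share RNA of the near-identical copies, so their values do not assign the signal to a copy.

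Of the other annexins, ANXA4, ANXA5 and ANXA6 had higher values on both arrays labelled low for the glycan than on both labelled high. ANXA6, an annexin with a doubled core, was 396 on PC3-H, 1123 on PC3-L, 410 on LNCaP and 1247 on LNCaP-AI, so that PC3-H and LNCaP had almost the same value. It was 2.83-fold higher on PC3-L than on PC3-H (log2 difference 1.5) and 3.04-fold higher on LNCaP-AI than on LNCaP (1.60). ANXA5, the phosphatidylserine binder used to stain dying cells, was 783, 1403, 489 and 1358 in the order PC3-H, PC3-L, LNCaP, LNCaP-AI. Its PC3 difference (0.84) was within 2-fold and its LNCaP difference (1.47) was not.

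Some annexins were instead highest on PC3-H. ANXA3 was 218 on PC3-H, 107 on PC3-L, 25.1 for LNCaP and 37.7 for the array labelled LNCaP-AI, which was 2.79-fold below PC3-L. ANXA7 was 863 on PC3-H, 510 on PC3-L, 442 for LNCaP and 337 for LNCaP-AI. ANXA11 was 356 on PC3-H, 195 on PC3-L, 138 on LNCaP and 255 on LNCaP-AI. ANXA8 and ANXA8L1, copies that probes may not separate, were 118 and 106 on PC3-H and between 52.1 and 61.0 on the other 3 arrays.

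ANXA9 was the one measured annexin past 2-fold higher on LNCaP than on each other array, at 99.3 against 35 for PC3-H, 33.6 for PC3-L and 32.5 for LNCaP-AI. ANXA4 was 117 on PC3-H, 147 on PC3-L, 122 for LNCaP and 139 for LNCaP-AI, within 1.25-fold in every pair. ANXA10 and ANXA13 lay between 22.2 and 25.8 and passed the filter in none of the 6 pairs.

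By counts, 14 of the 16 measured annexins passed the filter in the PC3 pair, 2 of them past 2-fold higher on PC3-L (ANXA1 and ANXA6) and 2 lower (ANXA3 and ANXA8L1), with a median log2 difference of 0.13 against −0.02 over all genes tested, of which 8.58% were higher and 3.77% lower. The 2 lower ones were just past 2-fold, at −1.02 and −1.01, and were within it once arrays were centred on their medians. Between PC3-H and LNCaP 5 of 14 were higher on PC3-H and 1 lower, with a median of 0.92 against 0.01; of all genes tested 9.95% were past 2-fold, 4.49% higher and 5.46% lower. Between LNCaP-AI and LNCaP 6 of 13 were higher and 1 lower, with a median of 0.88 against 0.00 and 10.6% of genes past 2-fold, 5.45% higher and 5.13% lower. The counts include both members, which were chosen on the last of these pairs, and copies that may share RNA. Without ANXA1 and the 3 ANXA2 pseudogenes, 10 annexins passed the filter in each pair. Their median log2 difference was −0.41 in the PC3 pair (1 higher and 2 lower), the opposite sign to that of the whole family, 0.92 between PC3-H and LNCaP (3 higher and 1 lower) and 0.38 between LNCaP-AI and LNCaP (3 higher and 1 lower).

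**Figure D3:**
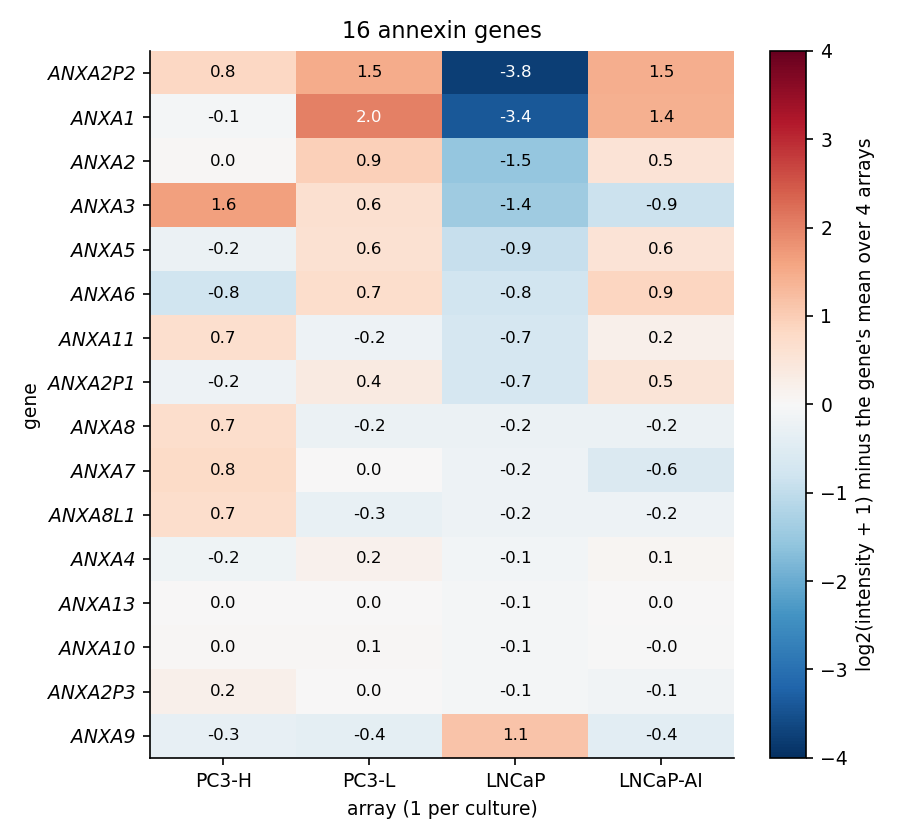
Log2(intensity + 1) of the 16 measured annexin genes, each minus its mean over the 4 arrays, as colours and numbers, ordered by the LNCaP value. ANXA2P2 and ANXA1 have the lowest LNCaP values of the family, and ANXA9 the highest.

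S100 proteins are small calcium-binding partners of annexins, and 19 of 20 listed had a named probe. S100A10, the ANXA2 partner, had an intensity of 106 on PC3-H, 85.4 on PC3-L, 24.5 for LNCaP and 103 for the array labelled LNCaP-AI. It was lowest on LNCaP like the members, 4.18-fold below PC3-H, and the other 3 arrays lay within 1.24-fold of each other. S100A16 was 244, 253, 29.2 and 408 in the order PC3-H, PC3-L, LNCaP, LNCaP-AI, again lowest on LNCaP. On LNCaP both genes lay under the 40th percentile of that array (34.2), so their folds against it may be understated. S100A11, the partner of ANXA1, differed less, at 362, 286, 220 and 293 on the same arrays. S100A9, a calprotectin subunit, was 242 on PC3-H and 58.0 to 68.7 on the others.

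In the PC3 pair 11 S100 genes passed the filter, with 0 past 2-fold higher on PC3-L and 3 lower, S100A9, S100A14 (92.5 on PC3-H and 39.8 on PC3-L) and S100A6 (66.6 and 31.4). Their median log2 difference was −0.34, and of all genes tested 8.58% were higher and 3.77% lower. Between PC3-H and LNCaP 4 of 12 were higher on PC3-H and 0 lower, and between LNCaP-AI and LNCaP 2 of 14 were higher and 0 lower, with medians of 0.61 and 0.25. Over all genes 4.49% were higher and 5.46% lower in the first of these pairs, and 5.45% and 5.13% in the second. S100A1, S100A2, S100A3, S100A4, S100A5, S100A7, S100A7A, S100A8, S100A12, S100A13, S100B, S100P and S100Z were past 2-fold in none of these 3 pairs.

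Among listed ANXA1 receptors and enzymes of lipid mediators, 14 of 19 had a named probe. The formyl peptide receptor genes FPR1 and FPR3 lay between 25.4 and 29.5 on all arrays, below each array's 40th percentile. They were named after their values were seen. No value for FPR2 is given here, so these genes do not cover all formyl peptide receptors. PTGS2, an inducible prostaglandin synthase, was 266 on PC3-H, 83.0 on PC3-L, 28.5 on LNCaP and 38.2 on LNCaP-AI. PTGES, the inducible prostaglandin E synthase, was 583, 91.2, 51.1 and 57.9 on the same arrays. Both were past 2-fold lower on PC3-L than on PC3-H, opposite in direction to ANXA1 there, and they were the 2 of 11 genes past 2-fold in that pair, where 12.3% of all genes were. ALOX15, a lipoxygenase, was 145 on LNCaP and 28.5 to 32.4 elsewhere, so that it was high where the members were low. Between LNCaP-AI and LNCaP it was the 1 of 12 past 2-fold, and between PC3-H and LNCaP PTGES and PTGS2 were higher and ALOX15 lower of the 12. The shares over all genes were 10.6% and 9.95%, and 1 of 12 is near the former. The medians of this list were −0.15 in the PC3 pair, 0.16 between PC3-H and LNCaP and 0.08 between LNCaP-AI and LNCaP. The receptor kinase EGFR was 651 on PC3-H and 272 to 356 on the other arrays, and PTGES3, a co-chaperone, ranged from 509 to 856.

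Of 16 genes listed for plasminogen activation 4 had a named probe. The protease inhibitor TFPI2 was 450 on PC3-H, 4768 on PC3-L, 30.7 on LNCaP and 1424 on LNCaP-AI, the same order of arrays as for ANXA1. The lysosomal protease CTSB was 54.7, 208, 63.2 and 175 on these arrays, so that PC3-H did not exceed LNCaP. The ANXA2 receptor gene ANXA2R ranged from 34.6 to 49.3, and plasminogen itself, PLG, from 23 to 25.7. Of 3 that passed the filter, TFPI2 and CTSB were past 2-fold higher in the PC3 pair and between LNCaP-AI and LNCaP, and TFPI2 between PC3-H and LNCaP, with 0 lower. Of all genes 8.58%, 5.45% and 4.49% were higher in these pairs, and 3 genes are too few to read as a group.

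Membrane repair, in which annexins seal wounds with ferlins and ESCRT proteins, was represented by 15 of 23 listed genes. MYOF, a ferlin, was 399 on PC3-H, 768 on PC3-L, 34.4 on LNCaP and 791 on LNCaP-AI. AHNAK, a scaffold bound by the ANXA2 and S100A10 complex, was 203, 341, 87.9 and 448 on those arrays, and the membrane ATPase EHD2 was 211, 351, 72.4 and 549. All 3 were lowest on LNCaP, with PC3-H next. AHNAK2 (102, 471, 72.1 and 716) and the caveolar coat gene CAVIN1 (84.5, 328, 49.7 and 861) had PC3-H nearer to LNCaP. The ESCRT genes differed less, with CHMP4B from 501 to 1106, CHMP2A from 316 to 569 and VPS4A from 177 to 244. Of 14 tested in each pair, 2 were past 2-fold higher on PC3-L than on PC3-H, 3 higher on PC3-H than on LNCaP and 5 higher on LNCaP-AI than on LNCaP, with 0 lower in any of the 3. Their medians were 0.12, 0.51 and 0.36, and of all genes 8.58%, 4.49% and 5.45% were higher.

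Copines and synaptotagmins bind membranes with calcium through another fold, the C2 domain, and 27 of 29 had a named probe. Of 23 tested, 1 was past 2-fold higher and 0 lower on PC3-L than on PC3-H, and 2 were higher and 2 lower on LNCaP-AI than on LNCaP, with medians of −0.04 and 0.01. Between PC3-H and LNCaP 0 were higher and 2 lower, with a median of 0.04. Over all genes 12.3%, 10.6% and 9.95% were past 2-fold in these pairs in either direction. CPNE2 was 169, 369, 111 and 585 in the order PC3-H, PC3-L, LNCaP, LNCaP-AI, and SYT14 49.0, 95.7, 33.9 and 70.3. CPNE3 (613 on LNCaP, 185 to 215 elsewhere) and SYT4 (723 on LNCaP, 23.1 to 27.4 elsewhere) were high where the members were low. CPNE7 (72.2 to 115), SYT17 (48.1 to 91.6) and CPNE5 (55.6 to 62.7) lay within 2-fold of LNCaP.

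Because ANXA1 is induced by glucocorticoids, a list of other such genes was read, of which 11 of 17 had a named probe. ERRFI1, a feedback inhibitor of EGFR, was 343, 763, 158 and 669 in the order PC3-H, PC3-L, LNCaP, LNCaP-AI, and the metallothionein MT2A 573, 647, 237 and 743. The transcription factor genes ZBTB16 (98.3 on LNCaP, 32.9 to 34.0 elsewhere) and KLF9 (111 on LNCaP, 43.9 to 54.5 elsewhere) were highest on LNCaP. DUSP1 ranged from 126 on LNCaP-AI to 511 on PC3-L, MT1X from 274 on PC3-L to 818 on LNCaP and PER1 from 79.2 to 103. Of 10 tested in each of the 3 pairs, 1 was higher and 1 lower in the PC3 pair, 2 and 2 between PC3-H and LNCaP, and 2 and 2 between LNCaP-AI and LNCaP. Their medians were 0.00, 0.01 and −0.70, and over all genes 12.3%, 9.95% and 10.6% were past 2-fold in either direction.

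**Figure D4:**
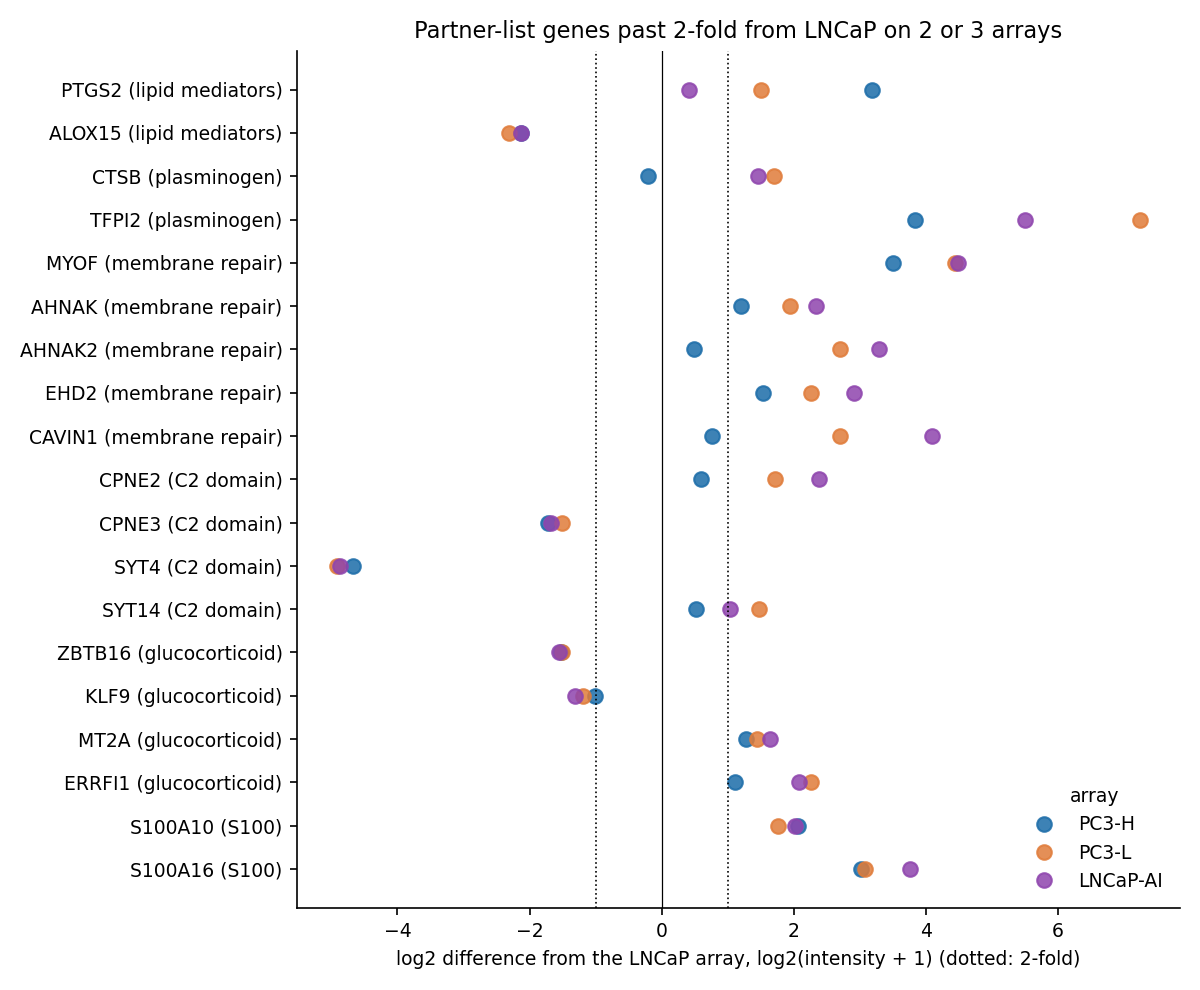
Log2 difference from the LNCaP array, on log2(intensity + 1), of the S100 and partner-list genes past 2-fold from it on 2 or 3 of the other arrays, 1 point per array, with 2-fold as dotted lines. MYOF, TFPI2 and S100A16 lie far above LNCaP on the other arrays, and SYT4 far below.

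Likeness of pattern was measured as the root mean square gap between log2 values, each gene centred on its mean over the 4 arrays, over 11508 genes that reached the 40th percentile on some array. The 5 nearest to ANXA1 were PLEK2 (gap 0.18), the matrix glycoprotein TNC (0.24), the peptidase ANPEP (0.27), the metalloproteinase inhibitor TIMP1 (0.38) and MYOF (0.44). PLEK2, a pleckstrin-family gene, was 439 on PC3-H, 1952 on PC3-L, 43.9 on LNCaP and 947 on LNCaP-AI. The 5 nearest to ANXA2P2 were the AP-1 subunit FOSL1 (0.39), MYOF (0.40), the receptor kinase AXL (0.41), EMP3 (0.53) and ANPEP (0.54). FOSL1 was 1314, 1002, 34.8 and 1192 on the same arrays, so that PC3-H was its highest. The members were near each other, with a gap of 0.56, at which ANXA2P2 was the 10th nearest gene to ANXA1 and ANXA1 the 6th nearest to ANXA2P2. Both were chosen for a large difference between LNCaP-AI and LNCaP, which enters this gap. Their nearness thus follows in part from the choice and is given as a description. ANXA2 was 83rd nearest to ANXA2P2, with a gap of 1.30. That gap counts the size of differences, and those of ANXA2 against LNCaP may be understated because its value there was dim. With each gene also divided by its SD, which sets aside the size of the differences, 0 of the 5 nearest genes of either member stayed among the 5.

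**Figure D5:**
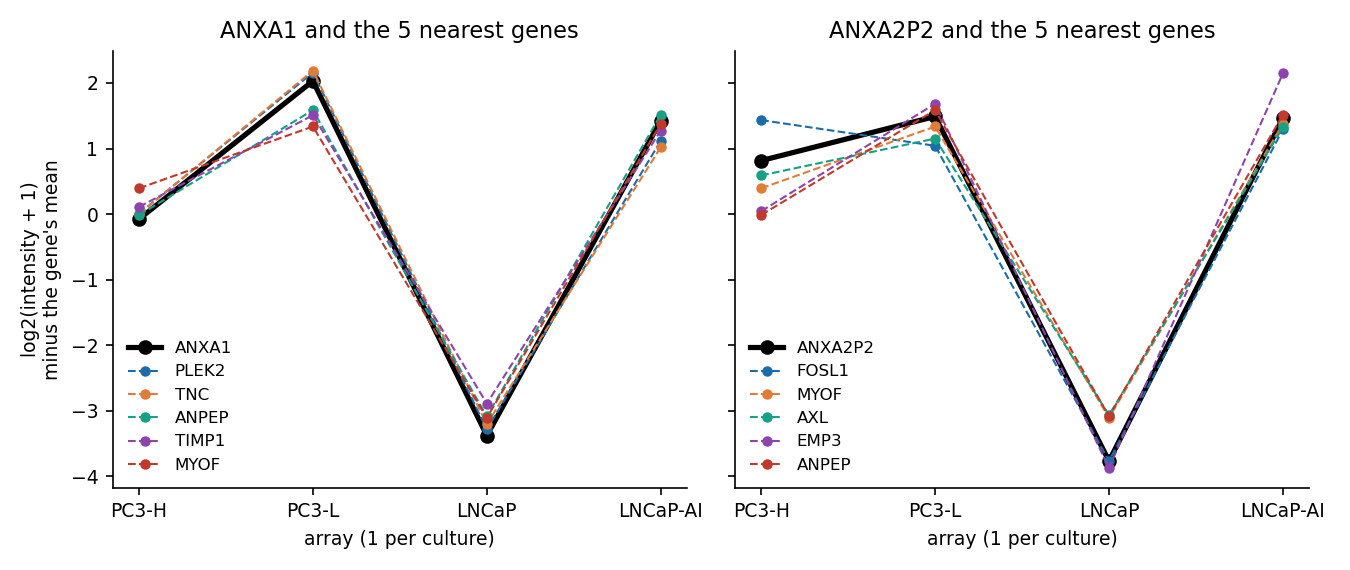
Log2(intensity + 1) minus the gene's mean over the 4 arrays, for ANXA1 (left) and ANXA2P2 (right) as thick lines and the 5 nearest genes of each as dashed lines, with lines joining arrays only to guide the eye. All are lowest on LNCaP, and PC3-H lies lower in the ANXA1 set than for ANXA2P2 itself.

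None of the 10 nearest neighbours of ANXA1 on the chromosome, 5 on either side in RefSeq, had a named probe, and none of the 10 of ANXA2P2 did, so neighbouring genes are not analysed here. ANXA1 is also abundant in myeloid cells, and 7 of 12 listed leukocyte markers were measured, with summed intensities from 365 on LNCaP to 899 on PC3-L. CD68, a lysosomal gene that cancer cells also express, was 290, 630, 102 and 553 in the order PC3-H, PC3-L, LNCaP, LNCaP-AI. LYZ lay between 25.2 and 28.5, CD14 between 26.9 and 32.1 and S100A8 between 26.4 and 30.2, below each array's 40th percentile. NKG7 (74.6 to 88.0) and CSF1R (44.1 to 46.4) lay above it on all arrays. So did S100A9, at 242 on PC3-H and 58.0 to 68.7 on the others. The measured fibroblast (2 of 7, sums from 67.3 to 76.1) and endothelial markers (3 of 5, from 137 to 170) differed little between arrays, and perineurial and Schwann cell markers (4 of 7) were highest on LNCaP (325) through ERBB3. Their part in the annexin values was not tested. The prostate epithelial markers KRT8, KRT18 and EPCAM summed to 914 to 2191.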

How the data were processed

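Per the labels' protocols, total RNA of 4 cultures was isolated with ISOGEN II, and biotin was attached for Affymetrix whole-transcript arrays. The deposited table holds 1 intensity per probe and array on a linear scale, as its values show. Summarisation, background correction and normalization are not given in the sources used here. The series' design text names GeneSpring GX 12.6, an FDR of 10% and 2-fold as thresholds; without replicates the FDR was not applied. Of 37934 probes 14952 had a gene symbol in the platform annotation, and the probe with the highest mean stood for its gene.

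Log2 differences were computed on intensity + 1 with Python 3.11.15 and pandas 2.3.3, in genes with the brighter of 2 values at or above the 40th percentile of the array, and tested on simulated data. The simulated arrays shared the same mean profile with small noise, and only bright genes were changed. The simulation therefore does not bear on dim values such as ANXA1 on LNCaP. Array number limits the precision. Groups follow titles. Genes named were the members, all measured annexins and S100 genes, partner genes past 2-fold from LNCaP on 2 or 3 arrays with up to 3 bright others per list, and the 5 nearest genes in pattern. The measured leukocyte, cell line and prostate epithelial markers were named besides these, as were ERBB3, FPR1 and FPR3. The members and lists were chosen with earlier results of these data known. Alternatives were pseudocounts of 0 and 16, median centring, quantile normalization, the mean over probes, filters, all probes and an exchange of PC3-H and PC3-L.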

Additional observations from a re-analysis of the deposited data

How the results depend on the processing

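All 60 values of the ANXA1 and ANXA2P2 log2 differences under pseudocounts of 0 and 16, median centring, quantile normalization and the mean over probes kept their direction and their side of 2-fold. Those under the mean over probes could not differ, since each member had 1 probe. ANXA1 ranged from 2.05 to 2.16 in the PC3 pair, from 2.79 to 3.36 between PC3-H and LNCaP and from 4.24 to 4.85 between LNCaP-AI and LNCaP; ANXA2P2 ranged from 0.67 to 0.77, 4.38 to 4.62 and 5.03 to 5.24. With PC3-H and PC3-L exchanged, as their descriptions have it, the PC3 differences were −2.11 and −0.67. A pseudocount of 16 left 2 annexins and 1 S100 gene past 2-fold in the PC3 pair and 1 S100 gene between LNCaP-AI and PC3-H, and median centring left 2 annexins in the PC3 pair. Division by the SD kept 0 of the 5 nearest genes of either member. Over all probes, which are more features, the counts past 2-fold higher and lower were 1080 and 1157 (LNCaP-AI minus LNCaP), 1647 and 910 (PC3-L minus PC3-H), 954 and 1215 (PC3-H minus LNCaP), 1436 and 1076 (PC3-L minus LNCaP), 223 and 430 (LNCaP-AI minus PC3-L), and 740 and 728 (LNCaP-AI minus PC3-H). Of the counts over single partner lists, 206 of 210 stayed within 1.5 times. No paired analysis was possible because each group had 1 array and no replicate number. Signal near the floor limits ANXA1 on LNCaP, and likewise ANXA2, ANXA2P1, ANXA3, S100A10, S100A16, PTGS2 and TFPI2 there.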
